A study of Mus musculus with 80 samples.

Results

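The mitochondrial ribosomal protein genes were described across RNA-seq libraries of mouse AgRP neurons, the hunger-promoting cells of the arcuate hypothalamus. Members were the rows of the expression table whose symbol was Mrpl or Mrps followed by a number and at most 1 letter. This gave 76 of 23337 genes, 47 named Mrpl and 29 named Mrps. By their place in the mammalian mitochondrial ribosome, 49 encode proteins of the large subunit, Mrps30 and Mrps18a among them despite their symbols, and 26 encode proteins of the small subunit. The remaining gene, Mrps36, carries the symbol, but its product is a component of the 2-oxoglutarate dehydrogenase complex. Every member was above 0 in all 80 libraries and passed the filter on low values in every test.

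Mitochondria keep their own ribosomes, which translate the few mRNAs of the mitochondrial genome, all of them for subunits of the respiratory chain and ATP synthase. The ribosomal RNAs come from mitochondrial DNA, but every ribosomal protein is encoded in the nucleus, made in the cytosol and imported. Some of these proteins have counterparts in bacterial ribosomes, and others are found only in mitochondria.

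The study asked how nutrient state, leptin and time of day act on transcription in these neurons, and whether the clock factor BMAL1 is needed. In the first of 4 experiments, GFP-positive cells were sorted from the arcuate nucleus of NPY::hrGFP mice, in which the Npy promoter drives GFP. These mice fed ad libitum (6 libraries at ZT2, 3 at ZT14), were fasted for 24 hours (7 and 8) or were refed for 1 hour after the fast (5 and 4). ZT is the zeitgeber time, in hours after lights on. In the second experiment, ribosome-bound RNA was immunoprecipitated from AGRP-Cre;RiboTag mice, ad libitum (3 libraries at ZT2, 4 at ZT14) or fasted (5 and 5). RiboTag tags the cytosolic ribosomes of cells with Cre activity, so its libraries hold mRNAs under cytosolic translation and whatever else the precipitate carries. In the third, WT;BMAL1fx controls and AGRP-Cre;BMAL1fx knockouts were given PBS or leptin. Controls had 4 and 3 PBS libraries and 3 and 3 leptin libraries at ZT2 and ZT14, and knockouts had 3 in each of the 4 groups. In the fourth, 2 control and 3 knockout libraries of the same genotypes were made at ZT5, with no treatment given. Both genotypes carried the floxed Bmal1 allele, and the deletion is limited to cells with AGRP-Cre activity. The labels do not give the feeding state of the leptin and ZT5 mice, and they do not say that the replicates were separate animals, so each p-value reflects library-to-library spread that may be technical only.

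The values were normalised counts, gene counts divided by 1 size factor per library, set jointly over all libraries. Recovered depth was 8.16 to 27.4 M (megareads) in sorted cells, 11.4 to 23.1 in RiboTag, 5.93 to 34.0 in the leptin series and 10.8 to 17.3 at ZT5. Members took between 40134 and 210680 reads per library. At the gene level Arntl, which encodes BMAL1, was 291 to 1211 in the 7 control ZT2 libraries of the leptin series and 246 to 526 in the 6 knockouts. At ZT5 it was 390 and 750 in controls and 470 to 540 in knockouts. The ranges overlapped at both times, and the deleted exons were not separated from the rest of the gene. A pair of fasted RiboTag ZT2 libraries stood apart: replicate 3, whose normalised counts summed to 42.5 M, and replicate 5, whose AgRP neuron markers summed to 4262 k (k, 1000 normalised counts). Medians, calls and named differences of the main fits that rest on them are given with and without them. Alternative fits and rank correlations with transcript length were not repeated without them.

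The promoters of the members shared sequence features that the choice by symbol did not use. RefSeq start sites (GRCm38.p6) gave a window, 250 bases before to 50 after the start, for 67 of the 76 members. The median window held 21 CpG dinucleotides, against 7 over all 27025 windows, and was 58.0% GC, against 52.7%. Both strands were searched for 3 cores that may overlap one another, those of NRF1 (GCGCANGC), ETS factors (CCGGAAG) and YY1 (AANATGGC). The NRF1 core was in 20 of 67 member windows (29.9%) and 10.1% of all windows. The ETS core was in 23 (34.3%) and 9.12%, and the YY1 core in 20 (29.9%) and 6.23%. In all, 47 member windows (70.1%) and 22.1% of all windows held at least 1 of the 3, and no member window held every one. A match is a description of the letters and not a bound site. The following 3 stretches, each 120 bases before to 30 after the start and 5′ to 3′ on the gene's strand, show 1 match of each kind in capitals. Mrps30 was chosen for the results below, Mrpl12 for its link to mitochondrial transcription (in human cells its protein was reported to bind the mitochondrial RNA polymerase) and Mrps22 as a mitochondria-specific small-subunit gene that was lower in RiboTag libraries.
Mrps30, chr13:118387223-118387372, minus strand, YY1 core: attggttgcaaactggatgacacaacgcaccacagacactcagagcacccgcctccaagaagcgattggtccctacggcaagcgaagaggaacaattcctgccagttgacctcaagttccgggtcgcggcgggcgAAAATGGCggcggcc
Mrpl12, chr11:120484517-120484666, plus strand, NRF1 core: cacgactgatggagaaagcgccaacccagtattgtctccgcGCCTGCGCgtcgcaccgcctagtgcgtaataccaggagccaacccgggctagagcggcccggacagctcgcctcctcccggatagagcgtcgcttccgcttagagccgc
Mrps22, chr9:98601650-98601799, minus strand, ETS core: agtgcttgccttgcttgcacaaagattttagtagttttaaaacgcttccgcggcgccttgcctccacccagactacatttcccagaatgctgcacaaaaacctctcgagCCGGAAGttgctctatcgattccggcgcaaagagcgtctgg
The YY1 core of Mrps30 began at base 16, counting the annotated start as base 1. The marked cores of Mrpl12 and Mrps22 lay before their starts. The letters of the YY1 core include ATG and the windows run past the start, so a match can cover a start codon. Whether matches did so was not tested. In addition, 17 of the 76 members had a protein-coding neighbour that starts within 1000 bases on the opposite strand and is transcribed away from the member. The closest were Mrpl54 with Apba3, 26 bases apart, and Mrps18c with Helq and Mrps34 with Eme2, each 29 bases apart.

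Members were short genes expressed at unequal levels. Their median transcript was 1221 bases, against 2418.5 over 20251 protein-coding genes, and ranged from 440.5 to 6073 bases. Per kilobase of transcript, the highest median level over the 80 libraries was 5728 normalised counts for Mrpl20, a large-subunit protein with a bacterial counterpart. Mrpl33, another such gene, was at 3712 per kilobase and Mrpl41 at 3694. The lowest were Mrps30, a mitochondria-specific protein, at 84.2, the small-subunit gene Mrps5 at 84.9 and the large-subunit gene Mrpl19 at 105. The place of Mrps30 depended on the libraries: its median per kilobase was 265 in the 30 fasted and ZT5 libraries, where Mrps5 was at 90.4, and 35.5 in the other 50, where Mrps5 was at 82.4. Within groups, the median coefficient of variation of a member ran from 8.84% (Mrpl44) to 37.5% (Mrps30).

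The summed level of the 76 members was low in ad libitum and in part of the fasted RiboTag libraries, and high in all ZT5 libraries. In sorted cells it was 43.5 to 143 k normalised counts over 33 libraries, with group medians between 97.9 and 107 k. The 7 ad libitum RiboTag libraries lay at 52.0 to 65.3 k, all below the 9 ad libitum sorted libraries at 80.6 to 134 k. In these bulk samples, fewer cells of a type and less RNA per cell cannot be told apart. Leptin-series libraries lay at 75.3 to 124 k and ZT5 libraries at 126 to 163 k, so that the highest leptin-series library was below the lowest at ZT5. Fasted RiboTag libraries ran from 48.9 to 435 k; without replicates 3 and 5 at ZT2, RiboTag reached 131 k. The ratio of large-subunit to small-subunit sums stayed between 1.87 and 2.30 in all 80 libraries.

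**Figure D1:**
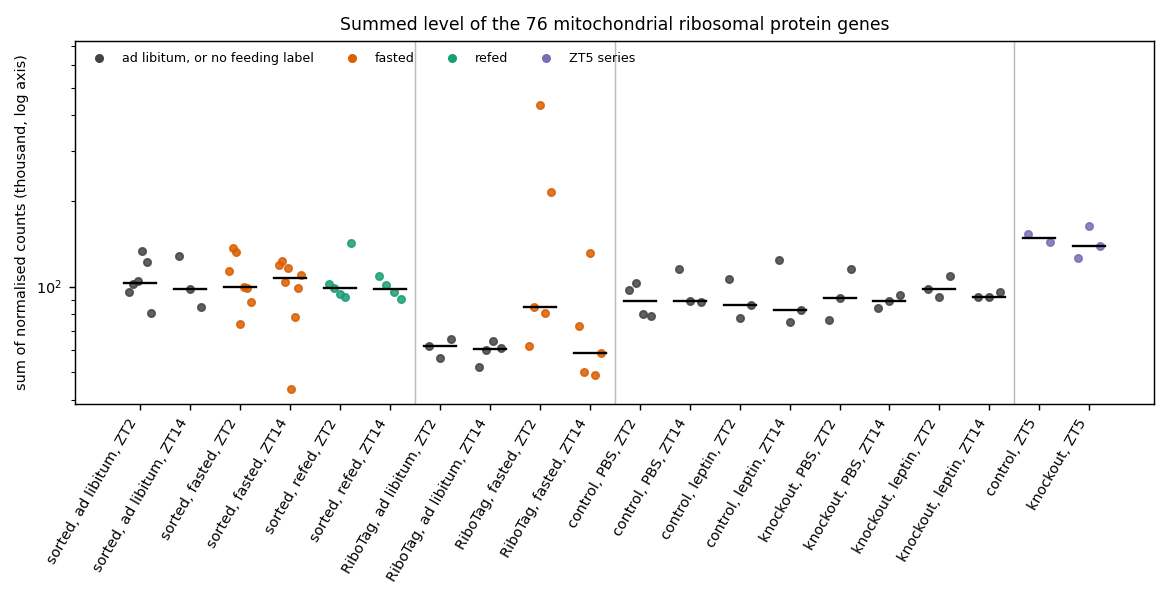
Summed normalised count of the 76 members per library (k, 1000 normalised counts, logarithmic axis), by group, with 1 point per library and a bar at each group median. The ad libitum RiboTag libraries lie at 52.0 to 65.3 k and the ZT5 libraries at 126 to 163 k.

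Mrps30 varied most between groups. Its highest group median (ZT5 controls, 1216) was 29.0 times its lowest (leptin-treated knockouts at ZT14, 42.0). The next ratio was 5.79, for Mrpl33, and the smallest was 1.65, for Mrpl10, the protein at the base of the large-subunit stalk. The ZT5 controls held the highest median of 44 members and the ZT5 knockouts that of 22. The lowest median of 33 members was in fasted RiboTag at ZT14, of 17 in ad libitum RiboTag at ZT14 and of 15 in ad libitum RiboTag at ZT2. These counts were not made over all genes, and the ZT5 medians rest on 2 control and 3 knockout libraries.

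Mrps30 and a minority of other members were higher in fasted than in ad libitum sorted cells. At ZT2, Mrps30 was 72, 206 and 341 in the lowest, median and highest ad libitum library and 793, 937 and 1297 in the fasted ones. At ZT14 the ad libitum libraries held 262, 64 and 317, and the fasted ones 597, 789 and 1141 (lowest, median, highest). At both times every fasted library exceeded every ad libitum one. The difference, on the log2(value + 1) scale, was 2.49 ± 0.38 (SE, 7 against 6 libraries, limma adjusted p = 4.23e-06) at ZT2 and 2.19 ± 0.47 (8 against 3, adjusted p = 0.000996) at ZT14. Without ad libitum ZT14 replicate 2, the library at 64, the latter was 1.48 with an adjusted p of 0.0594. Mrps30 shares 623 exon bases with B430218F22Rik, a gene annotated as protein-coding on the opposite strand. The strand setting of the counting is not given in the sources used here.

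Refeeding for 1 hour went with low Mrps30 values. The refed libraries held 404, 106, 47, 157 and 76 at ZT2 and 123, 218, 92 and 117 at ZT14, all below every fasted library of the same time. The refed minus fasted difference was -3.00 ± 0.40 (adjusted p = 1.01e-06) at ZT2 and -2.61 ± 0.42 (adjusted p = 3.08e-05) at ZT14 on the log2 scale. Against ad libitum cells, which overlapped the refed ones, it was -0.51 ± 0.42 (adjusted p = 0.434) and -0.42 ± 0.53 (adjusted p = 1). The fasting and refeeding comparisons share libraries, so they are not independent of each other.

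**Figure D2:**
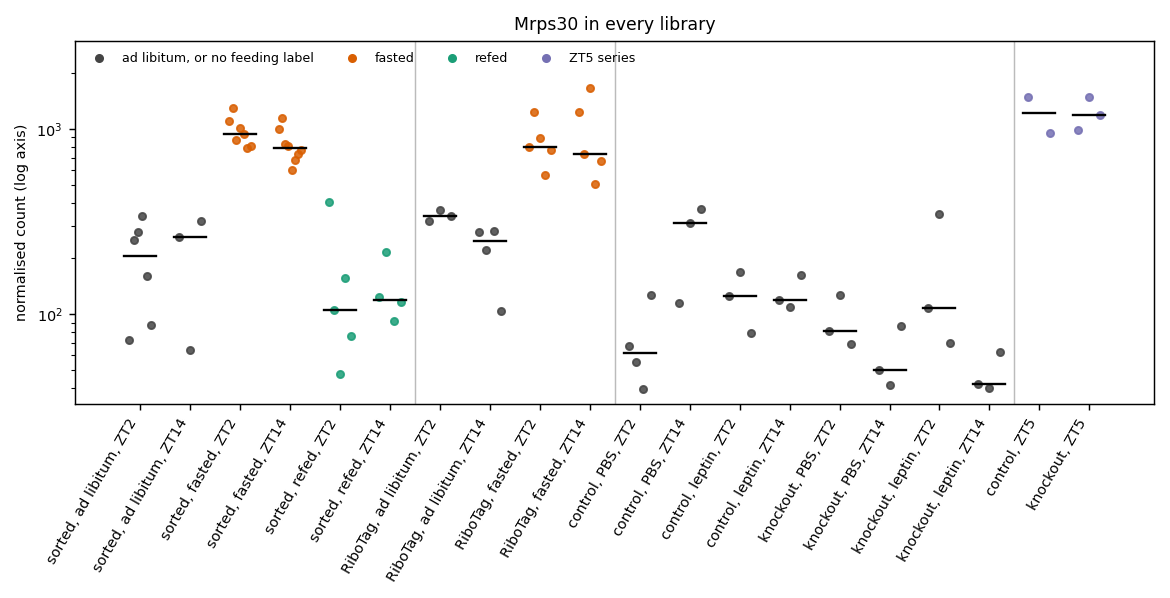
Normalised count of Mrps30 in each library (logarithmic axis) by group, with 1 point per library and a bar at each group median. The fasted and ZT5 libraries lie at 502 to 1655 and all others at 39.7 to 404.

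The 30 fasted and ZT5 libraries were then set beside the other 50. As the ZT5 libraries have no feeding label, this grouping came from the values and is no independent test of fasting. Mrps30 was 502 to 1655 (median 881) in the 30 fasted and ZT5 libraries and 39.7 to 404 (median 118) in the other 50, and it was the 1 member of 76 whose values did not overlap between these sets, where 0.756% of the 13228 genes that reached 10 in at least 30 libraries did not. Cebpb, a transcription factor gene, was 42.5 to 1565 against 0 to 17.1, and Alyref, an mRNA export factor gene, was 545 to 2756 against 12.3 to 81.8. The ribosomal RNA precursor Rn45s was 1577 to 148448 in the 30 libraries and 50805 to 963336 in the others; without fasted RiboTag ZT2 replicates 3 and 5 the former reached 32735, and the sets did not overlap. Lars2, the mitochondrial leucyl-tRNA synthetase gene, was 559 to 11871 against 4921 to 178943. For Cebpb and Alyref every fasted and ZT5 library lay above every other library. Rn45s overlapped through the 2 fasted RiboTag replicates named above, and Lars2 overlapped with or without them. The ZT5 libraries went with the fasted ones with no feeding state given, so fasting and this profile cannot be told apart here.

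Of the 76 members, 13 (10 higher, 3 lower) passed the threshold of 0.05 on the adjusted p between fasted and ad libitum sorted cells at ZT2, when 37.5% of all 14931 genes tested did, 18.3% higher and 19.2% lower. The share of members was 17.1%, and their median difference was -0.03, against -0.02 over all genes and 0.08 without ad libitum replicate 4. Of the 49 large-subunit genes, 7 rose and 3 fell, and of the 26 small-subunit genes 3 rose. Mrpl37, a mitochondria-specific large-subunit gene, ran from 329 to 555 (median 473) ad libitum and from 710 to 1102 (median 768) fasted. The ranges did not overlap, and the difference was 0.94 ± 0.18 (adjusted p = 9.19e-05). Mrpl10 went from 874 to 1535 (median 1269) to 1896 to 2441 (median 2059), again without overlap, a difference of 0.73 ± 0.14 (adjusted p = 0.000135). Mrpl19 (363 to 472 ad libitum, 463 to 1015 fasted) overlapped in 1 fasted library and differed by 0.70 ± 0.17 (adjusted p = 0.00165). It shares 1962 exon bases with Gcfc2 on the opposite strand. Mrpl50 differed by 0.46 ± 0.13 (adjusted p = 0.00684), and the other 5 higher members were Mrpl4, Mrpl38, Mrps2, Mrps5 and Mrps7.

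The 3 lower members all belong to the large subunit and have bacterial counterparts. Mrpl35 ran from 1434 to 3095 (median 1904) ad libitum and from 847 to 1859 (median 1275) fasted, overlapping in part, with a difference of -0.62 ± 0.19 (adjusted p = 0.0102; -0.34 and 0.219 with a correction for length and GC content). Mrpl30 differed by -0.55 ± 0.21 (adjusted p = 0.0400) and Mrpl36 by -0.59 ± 0.24 (adjusted p = 0.0472). These calls were lost when any 1 of 7 and of 10 of the 13 libraries was left out, and in edgeR (adjusted p = 0.0765 and 0.0622). With rescaling by trimmed means (TMM), or in edgeR, 10 members were higher and 1 lower. In either direction, 5584 of 14931 genes were called with TMM and 5004 of 14861 in edgeR.

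Transcript length went with these differences. All 10 higher members were among the 38 longer than the median member, and the rank correlation of difference with length was 0.41 over the 76 members, which share their libraries. After a correction for length and GC content, 7 members were higher and 28 lower at ZT2, and 2 higher and 11 lower at ZT14. In either direction, 5188 of 14725 genes were then called at ZT2 and 2897 at ZT14. The median member difference was then -0.23 at ZT2, against -0.08 over all genes. Among 24 astrocyte, oligodendrocyte, microglia and endothelial markers, 1 was higher in all fasted than in all ad libitum sorted libraries, and astrocyte markers summed to 0.192 to 15.6 k fasted and 0.0494 to 0.454 k ad libitum. Their part in the result was not tested.

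**Figure D3:**
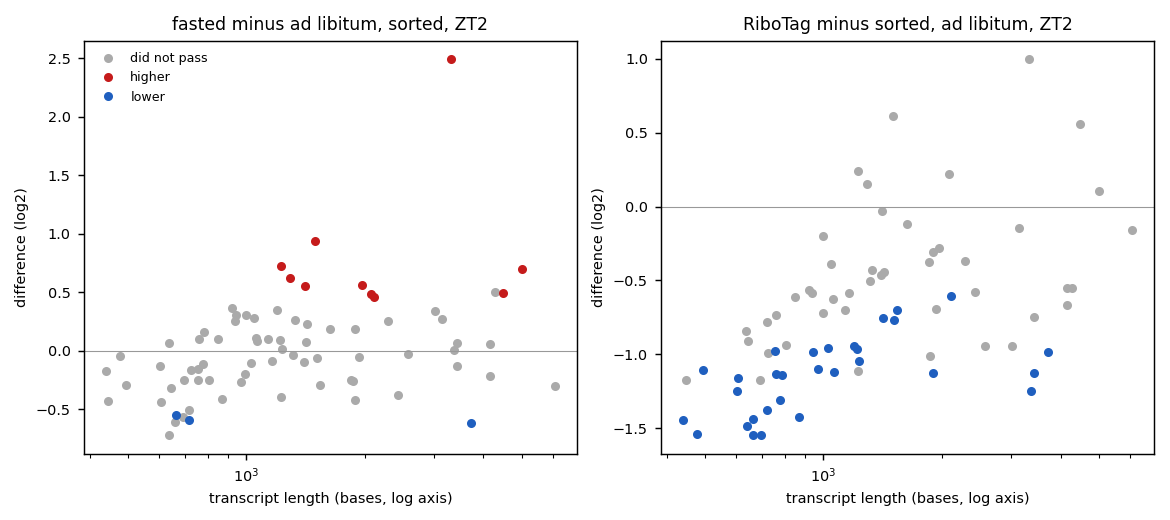
Difference of each member (log2 scale) against its transcript length in bases (logarithmic axis), with 1 point per member and red and blue points higher and lower past the threshold. The rank correlation was 0.41 in fasted minus ad libitum sorted cells at ZT2 (left) and 0.60 in ad libitum RiboTag minus sorted cells at ZT2 (right).

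At ZT14 the fasting comparison called 2 members, both higher (18.5% of genes in either direction, 9.66% higher). Besides Mrps30 this was Mrpl37, which ran from 447 to 594 ad libitum and from 548 to 1308 fasted, overlapping in 1 fasted library, with a difference of 0.68 ± 0.22 (adjusted p = 0.0283). It no longer passed without ad libitum replicate 2 or 3 or fasted replicate 2 (adjusted p = 0.191, 0.0706 and 0.0550), nor with the length and GC correction (0.45, adjusted p = 0.0898). The median member difference was -0.14, against -0.04 over all genes, and 0.04 without fasted replicate 5. Between 0 and 4 members were called with 1 library left out, 0 without ad libitum replicate 2, 1 without ad libitum replicate 3 or fasted replicate 2, and 4 without fasted replicate 5. Calls over all genes were not counted with 1 library left out. The fasting difference itself was not shown to depend on time, since 0 members passed the test of ZT14 minus ZT2 (0% of genes).

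Other gene groups of the same machinery were set beside the members in sorted cells at ZT2. Of 82 cytosolic ribosomal protein genes tested, 60 fell and 1 rose, with a median of -0.99 and, for example, -1.65 ± 0.21 (adjusted p = 1.73e-07) for Rpsa. Among 84 nuclear genes with symbols of respiratory-chain and ATP synthase subunits, which include a few assembly factors, 6 rose and 4 fell; Ndufa6 of complex I differed by -1.06 ± 0.26 (adjusted p = 0.00161). Of 12 mitochondrial translation factors 3 rose and 1 fell; the elongation factor gene Tsfm differed by 0.84 ± 0.17 (adjusted p = 0.000241) and the recycling factor gene Mrrf by -0.64 ± 0.19 (adjusted p = 0.00858). Of 19 mitochondrial tRNA synthetase genes 3 rose and 3 fell, led by Lars2 at -4.23 ± 0.50 (adjusted p = 5.39e-08), and of 22 mitoribosome assembly genes 6 rose and 3 fell, led by Wbscr16 at 1.83 ± 0.40 (adjusted p = 0.000533). None of 7 mitoribosomal proteins with other names passed, nor did any of 8 genes for mitochondrial transcription (limma; 1 of each had an unadjusted p under 0.05).

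**Figure D4:**
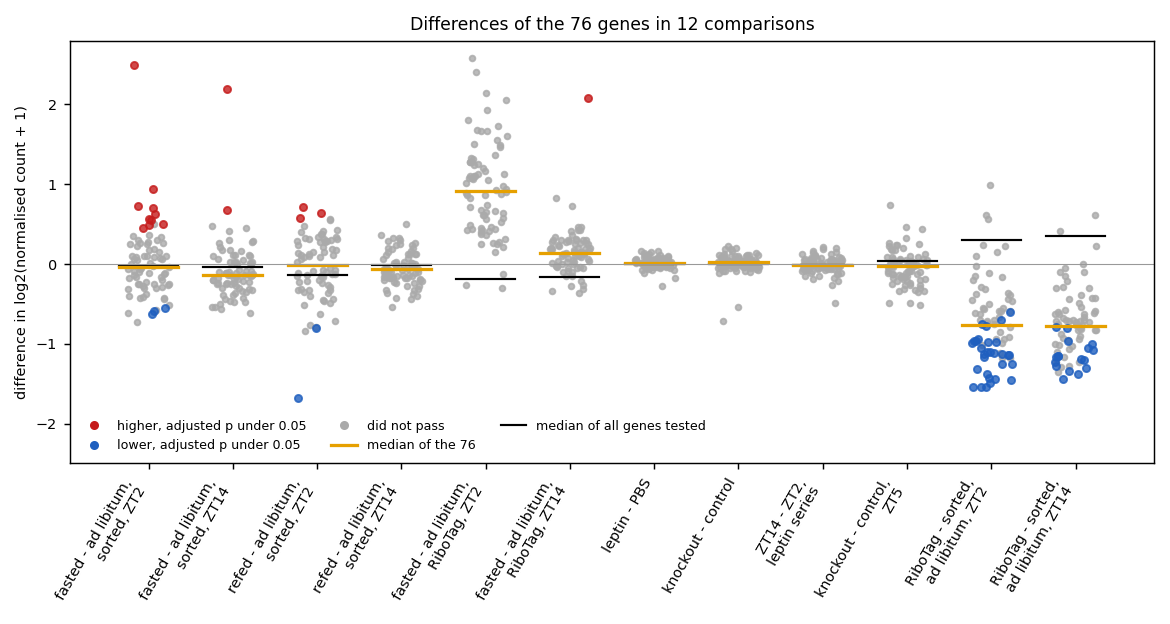
Difference of each member in 12 comparisons (vertical axis, log2 scale), with 1 point per member, red and blue points higher and lower past the threshold, an orange bar at the median of the 76 and a black bar at that of all genes tested. Mrps30 is the highest point in fasted minus ad libitum sorted cells, at 2.49 (ZT2) and 2.19 (ZT14).

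Refeeding called few members. Against fasted cells at ZT2, 3 members were lower and none higher, with 21.8% of genes called in either direction and 11.1% lower. Beside Mrps30 these were Mrps24, a small-subunit gene with a bacterial counterpart, at -1.49 ± 0.38 (adjusted p = 0.00445; -0.72 and 0.0965 with the length and GC correction), and Mrpl19 at -0.59 ± 0.18 (adjusted p = 0.0184). At ZT14 Mrps30 alone was called, lower, of 11.7% of genes in either direction and 5.3% lower. With the length and GC correction, 17 members were higher and 3 lower at ZT2, and 8 higher and 1 lower at ZT14. Of 14725 genes, 3056 were then called in either direction at ZT2 and 1647 at ZT14. Of 82 cytosolic ribosomal protein genes, 41 rose at ZT2 and 17 at ZT14, and none fell.

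Against ad libitum cells at ZT2, refed cells had 3 members higher and 2 lower (17.7% of genes in either direction, 9.01% higher, 8.72% lower). Mrps2, a small-subunit gene with a bacterial counterpart, was 515 to 789 (median 604) ad libitum and 822, 959, 963, 1385 and 962 refed. The groups did not overlap, and the difference was 0.71 ± 0.16 (adjusted p = 0.00234). Mrps24 was 849 to 1246 (median 1113) ad libitum and 713, 231, 159, 191 and 758 refed, again without overlap, at -1.68 ± 0.40 (adjusted p = 0.00348). It shares 226 exon bases with Urgcp on the same strand. The other calls, Mrps7 at 0.64 ± 0.21 (adjusted p = 0.0311), Mrpl4 at 0.58 ± 0.20 (adjusted p = 0.0405) and Mrpl36 at -0.80 ± 0.26 (adjusted p = 0.0278), each ended when any 1 of 5, 7 and 5 of the 11 libraries was left out. With the length and GC correction 5 members were higher and 13 lower, and 3382 of 14725 genes were called in either direction. At ZT14 no member passed (0.375% of genes). There 1 member had an unadjusted p under 0.05, and none passed in edgeR; Mrps2 differed by 0.50 ± 0.20 (adjusted p = 0.553) with all 4 refed libraries above all 3 ad libitum ones.

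Time of day separated no member in sorted cells by limma or edgeR. ZT14 against ZT2 called 0% of genes ad libitum, 0.281% fasted and 0.0268% refed, and at most 1 member had an unadjusted p under 0.05 in these comparisons. Fasted cells had 66 of 76 members below 0, with a median of -0.14 against -0.03 over all genes. Without fasted ZT14 replicate 5, the library with the lowest summed level, the member median was 0.02. In ad libitum RiboTag libraries 0% of genes and no member passed.

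RiboTag libraries gave a higher Mrps30 on fasting at ZT14. The ad libitum libraries held 277, 222, 282 and 104 and the fasted ones 1234, 730, 1655, 502 and 669, without overlap. The difference was 2.07 ± 0.37 (adjusted p = 0.00133), and Mrps30 was the 1 member called of 76, with 5.29% of genes called in either direction and 4.15% higher. The median member difference was 0.14, against -0.16 over all genes, and -0.08 without fasted replicate 3. At ZT2 the ad libitum libraries held 317, 367 and 339 and the fasted ones 801, 1233, 894, 567 and 772, again without overlap. That difference was 1.28 ± 0.40 (limma adjusted p = 0.0564, edgeR 0.0381) and, without fasted replicates 3 and 5, 1.28 ± 0.46 (adjusted p = 0.118).

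At ZT2 no member passed in RiboTag by limma, of 7.89% of genes. In edgeR 17 members passed, all higher, of 1467 called among 15444 genes. By limma 30 members had an unadjusted p under 0.05. The median member difference was 0.92, against -0.19 over all genes, with 73 of 76 members above 0. Without fasted replicates 3 and 5 the limma median was 0.28 and again no member passed by limma. The edgeR fit was not repeated without them. The rank correlation of difference with transcript length was -0.55. With the length and GC correction the median was 0.27, and 3 members were called, of 1379 called among 15244 genes. Mrpl33 shows the spread: 654, 719 and 696 ad libitum, and 1160, 1898, 13893, 2109 and 18821 fasted. Every fasted library exceeded every ad libitum one, and the highest values were those of replicates 3 and 5. The difference was 2.58 ± 0.79 (adjusted p = 0.0524), and 1.27 ± 0.56 (adjusted p = 0.201) without that pair. Mrpl33 shares 261 exon bases with Gm43809 on the same strand. Between 0 and 18 members were called with 1 library left out, 18 without fasted replicate 1, 2 without replicate 2 and 3 without replicate 4. Calls over all genes were not counted in these refits.

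In fasted RiboTag libraries, ZT14 against ZT2 called no member and 0% of genes, by limma or edgeR. Of 76 members 75 were below 0, with a median of -0.76 against 0.07 over all genes, and 31 had an unadjusted p under 0.05. Without ZT2 replicates 3 and 5 the median was -0.15, and with the length and GC correction it was -0.37. The rank correlation of difference with length was 0.66. Mrps28 differed by -1.72 ± 0.51 and Mrpl34 by -1.75 ± 0.52 (adjusted p = 0.531 for both); without those replicates they differed by -0.72 and -0.78 (adjusted p = 0.934 for both).

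Leptin and the Bmal1 deletion called no member in any comparison of the leptin series. Leptin against PBS called 0.0215% of genes in controls at ZT2, 0% at ZT14, 0.423% in knockouts at ZT2 and 0.0861% at ZT14. Knockout against control called 0.0215% with PBS at ZT2, 0.00717% with PBS at ZT14, 0.00717% with leptin at ZT2 and 0.0215% with leptin at ZT14. ZT14 against ZT2 with PBS called 0.00717% in controls and 0% in knockouts. Averaged over the other factors, leptin called 0.925%, genotype 0.0789% and time 0.638% of genes. In these 13 comparisons between 0 and 5 members had an unadjusted p under 0.05, and edgeR called none. The averaged member differences ranged from -0.27 to 0.17 for leptin (median 0.02), from -0.71 to 0.23 for genotype (median 0.03) and from -0.49 to 0.21 for time (median -0.01). Each of these medians changed sign when 1 library was left out, within -0.06 to 0.09.

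Mrps30 values were spread widely there. PBS controls held 68, 55, 40 and 128 at ZT2 and 115, 309 and 371 at ZT14, and PBS knockouts 81, 127 and 69 at ZT2 and 50, 41 and 86 at ZT14. All 3 knockouts were below all 3 controls at ZT14, at -2.05 ± 0.52 (adjusted p = 0.180). With leptin at ZT14 the controls were at 119, 110 and 162 and the knockouts at 42, 40 and 63, at -1.43 ± 0.52 (adjusted p = 0.908). With leptin at ZT2 the controls were at 126, 169 and 79 and the knockouts at 109, 346 and 70, which overlapped. Neither ZT14 difference passed the threshold, and the difference averaged over treatment and time was -0.71 ± 0.26 (adjusted p = 0.407). Mrps7, a small-subunit gene with a bacterial counterpart, had the next smallest p for genotype, at 0.23 ± 0.09 (adjusted p = 0.47).

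The ZT5 series called no member and 0% of genes between genotypes; 4 members had an unadjusted p under 0.05 and edgeR called none. Mrps30 was 1479 and 952 in controls and 986, 1483 and 1189 in knockouts, with a difference of 0.02 ± 0.26 (adjusted p = 0.990). Mrpl16, a large-subunit gene with a bacterial counterpart, was 935 and 658 in controls and 1233, 1623 and 1117 in knockouts. The groups did not overlap, but the difference of 0.74 ± 0.25 had an adjusted p of 0.523. Beside the PBS controls at ZT2 of the leptin series, the ZT5 controls were higher in 74 of 76 members, by a median of 0.73 on the log2 scale (range -0.16 to 4.15). In 65 members both ZT5 libraries exceeded all 4 PBS libraries, as they did in 24.6% of 13367 genes with at least 10 in 2 of these libraries. The median over those genes was -0.13, with 45.7% above 0. These are different experiments and were not tested.

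Ad libitum RiboTag libraries held lower levels of many members than ad libitum sorted cells. At ZT2, 30 members were lower and none higher, with 40.6% of genes called in either direction and 13.4% lower. Of the 49 large-subunit genes 20 were lower and of the 26 small-subunit genes 10. The median member difference was -0.76, whereas that of all genes was 0.30, and 69 members were below 0. At ZT14, 17 were lower and none higher (35.1% of genes in either direction, 10.5% lower), with medians of -0.77 and 0.35 and 72 members below 0. TMM scaling within these libraries moved the median of all genes to 0.19 at ZT2 and 0.23 at ZT14, and that of the members to -0.87 and -0.90. Lower calls at both times were shared by 16 members, 14 were called at ZT2 only and 1 at ZT14 only, without a test of the difference between times. The share of all genes lower at both times was not counted, so the 16 have no background beside them.

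Mrps17 and Mrps22 were called at both times. Mrps17, with a bacterial counterpart, was 2382 to 5187 (median 2983) in sorted ZT2 libraries and 1213, 1028 and 1372 in RiboTag. The groups did not overlap, and the difference was -1.43 ± 0.35 (adjusted p = 0.00151) at ZT2 and -1.34 ± 0.38 (adjusted p = 0.00612) at ZT14. Mrps22 was 613 to 899 (median 789) in sorted ZT2 libraries and 459, 344 and 401 in RiboTag, at -0.94 ± 0.24 (adjusted p = 0.00229). At ZT14 it was 1170, 884 and 629 sorted and 382, 437, 278 and 425 in RiboTag, also without overlap, at -1.21 ± 0.26 (adjusted p = 0.000581). The mitochondria-specific Mrpl53 differed by -1.54 ± 0.42 at ZT2 (adjusted p = 0.00379), Mrpl1 by -1.12 ± 0.31 (adjusted p = 0.00421) and Mrps10 by -1.12 ± 0.31 (adjusted p = 0.00450). Mrpl53 shares 695 exon bases with Gm42688 on the same strand. At ZT14 Mrpl50 differed by -0.78 ± 0.19 (adjusted p = 0.00186), Mrps31 by -1.0 ± 0.28 (adjusted p = 0.00617) and Mrps10 by -1.15 ± 0.34 (adjusted p = 0.00824; 0.0588 without sorted replicate 1).

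Transcript length went with the method difference too, with rank correlations of 0.60 at ZT2 and 0.54 at ZT14 over the 76 members. With the length and GC correction, 3 members were higher and 23 lower at ZT2 and 2 higher and 16 lower at ZT14, with median member differences of -0.40 and -0.31. Of 15910 genes, 5535 were then called in either direction at ZT2 and 4318 at ZT14. Under the correction Mrps17, Mrps22 and Mrpl1 no longer passed at ZT2 (adjusted p = 0.108, 0.673 and 0.258). At ZT14 neither Mrps17, Mrps22 nor Mrps10 passed (adjusted p = 0.622, 0.434 and 0.0726), and Mrpl50 and Mrps31 changed sign, to 0.16 and 0.08. With 1 library left out, 8 to 34 members were called at ZT2, 9, 8 and 16 without RiboTag replicates 1, 2 and 3 and 18 and 17 without sorted replicates 4 and 5. At ZT14 the range was 4 to 15, with 8 and 11 without RiboTag replicates 1 and 3 and 4 and 8 without sorted replicates 1 and 2. No count over all genes was taken with 1 library left out.

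**Figure D5:**
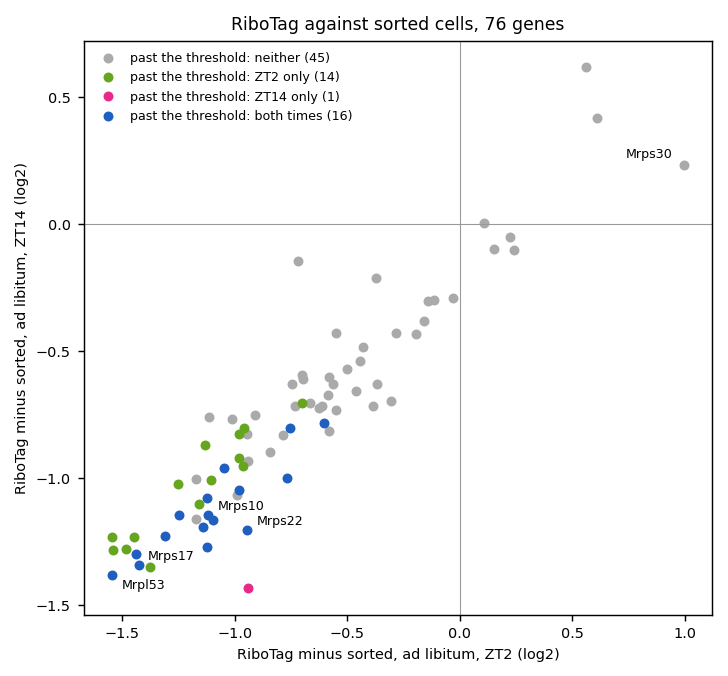
Difference between ad libitum RiboTag and sorted libraries (log2 scale) at ZT2 (horizontal axis) and ZT14 (vertical axis), with 1 point per member. Most members lie below 0 on both axes, 16 of them called at both times. The share of all genes called at both times was not counted.

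Markers of astrocytes, oligodendrocytes, microglia and endothelium moved with the method. Of 24 astrocyte, oligodendrocyte, microglia and endothelial markers, 23 were higher in all ad libitum RiboTag than in all ad libitum sorted libraries. Astrocyte markers summed to 11.7 to 92.9 k in RiboTag and 0.0494 to 0.454 k in sorted cells, and oligodendrocyte markers to 11.7 to 149 and 0.576 to 0.897 k. Microglial markers summed to 0.690 to 14.5 and 0.00132 to 0.0247 k, and endothelial markers to 0.615 to 15.2 and 0 to 0.0188 k, with each of the 4 endothelial and 6 microglial markers at 0 in some sorted libraries. The 9 AgRP neuron markers summed to 37.4 to 146 k in RiboTag and 197 to 471 k in sorted cells, and 3 of them were lower without overlap. Of 4 markers of neighbouring neurons (Pomc, Cartpt, Tac2 and Kiss1), 1 was higher in RiboTag without overlap, and likewise 1 of 4 tanycyte markers. The part of other cells in the lower member levels was not tested. Of 82 cytosolic ribosomal protein genes, 76 were lower in RiboTag at ZT2 and 60 at ZT14, and none was higher. Of 85 respiratory-chain and ATP synthase genes, 5 were higher and 8 lower at ZT2 and 5 and 5 at ZT14, and Chchd1, a mitoribosomal protein with another name, was lower at ZT2 by -1.23 ± 0.50 (adjusted p = 0.0467).

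The fasting difference was compared between methods at ZT2, where 3 members were called, all with a larger difference in RiboTag (5.7% of genes in either direction, 2.77% higher). Mrpl42, a mitochondria-specific large-subunit gene, was 1263, 1832, 26618, 1600 and 6336 in fasted RiboTag against 1078, 893 and 901 ad libitum, while in sorted cells it was 1108 to 3698 fasted and 1987 to 4759 ad libitum. The highest 2 values belonged to replicates 3 and 5. The difference between the fasting differences was 2.54 ± 0.72 (adjusted p = 0.0314). It was 2.63 ± 0.75 for Mrpl33 (adjusted p = 0.0317) and 1.92 ± 0.55 for Mrpl53 (adjusted p = 0.0331). Without those replicates, 0 members were called, and the values were 1.31, 1.32 and 0.995 (adjusted p = 0.174, 0.222 and 0.228). Leaving out 1 library gave 0 to 25 calls: 0 without any 1 of the 3 ad libitum RiboTag libraries, fasted RiboTag replicate 3 or 5, or ad libitum sorted replicate 4 or 5. It gave 25, 19 and 6 without fasted RiboTag replicates 1, 2 and 4, and 5 without ad libitum or fasted sorted replicate 2. Here too, calls over all genes were not counted with 1 library left out. At ZT14 no member was called, of 0.973% of genes, with 1 member at an unadjusted p under 0.05 and none in edgeR.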

How the data were processed

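Per the labels' protocols, FACS isolated GFP-positive cells from dissociated slices of the arcuate nucleus, RiboTag RNA came from immunoprecipitates, and all RNA was amplified with SMART-seq v4 and made into Nextera XT libraries. No separate collection is described for the leptin and ZT5 series. The submitters' processing notes name, without role or order, the mm10 build and the tools DESeq, DESeq2, featureCounts and Subread, STAR 2.5.1 and R 3.5.1; strand setting and annotation are not given in the sources used here. The deposited table holds signal values, namely normalised counts, each library's gene counts over its own size factor. In 79 of 80 libraries they were whole multiples of 1 step, so reads were recovered. The exception was sorted ad libitum ZT2 replicate 4, which was kept in limma but left out of edgeR because only 16.17% of its values came within 0.1 of a whole number.

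The 76 members and the gene lists were chosen with earlier results of these data known. The trend method of limma 3.58.1 (R 4.3.3) was fitted to each experiment, all groups together, on log2(value + 1), which understates changes of low genes; the method comparisons used the 50 sorted and RiboTag libraries. The 12940 to 16132 genes that reached 10 in a number of libraries equal to the smallest group's size were tested, with Benjamini-Hochberg adjustment over all of them in each of 32 comparisons. Alternatives were pseudocounts of 0.5 and 10, no filter, TMM, a length and GC correction, edgeR 4.0.16 quasi-likelihood on recovered reads, a replicate block, each library left out, and, chosen after seeing the data, both outlying RiboTag libraries left out. Scripts were tested on simulated data. Lengths and overlaps come from GENCODE M21 by symbol (20929 matched directly, 1919 through an older symbol, 489 unmatched). Promoters come from RefSeq. Differences were given for up to 5 called members per direction with the smallest p, or 2 where none was called, and for up to 3 genes of another list; any member could be named for its level.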

Additional observations from a re-analysis of the deposited data

Results flagged for a closer look

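In 1 of the 18 group summaries examined for a library far from the others (chance picks about 1 in 20 groups), refed sorted ZT2 replicate 5 had the highest summed member level, 142.6 k (k, 1000 normalised counts), away from the other 4 libraries of its group. The fasting difference at ZT2 differed between RiboTag and sorted cells, by the test of that difference, for Mrpl42 (2.54 on the log2 scale), Mrpl33 (2.63) and Mrpl53 (1.92). None of the 3 passed without fasted RiboTag replicates 3 and 5.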

How the results depend on the processing

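Of 1445 alternative values of single-member differences, 1341 kept their direction and side of the threshold, 89 lost and 12 gained a call, and 3 changed sign: Mrpl50 (0.162) and Mrps31 (0.08) in RiboTag minus sorted cells at ZT14 with the length and GC correction, and Mrps24 in ZT14 minus ZT2 PBS knockouts, -0.79 in the full fit and between -1.35 and 0.053 with 1 library left out, the latter without ZT14 knockout replicate 2. The cause was not tested. Counts of members called moved by more than 1.5 times as follows. The length and GC correction gave 35 for fasting in sorted cells at ZT2 and 13 at ZT14, 20 and 9 for refed minus fasted, 18 for refed minus ad libitum at ZT2, 3 for ZT2 fasting in RiboTag and 19 for the ZT2 method by fasting difference. In that last comparison 1388 of 15910 genes were called. TMM scaling gave 26 for RiboTag minus sorted cells at ZT14, with 5687 of 16132 genes called. It gave 5 for ZT2 fasting in RiboTag, with 1132 of 15444 genes called. For ZT2 fasting in RiboTag, edgeR gave 17, with 1467 of 15444 genes called. For method by fasting at ZT2 edgeR gave 23, with 1350 of 16086 genes called. By limma that comparison gave 0 without both outlying RiboTag libraries, with 491 of 15945 genes called. The edgeR fit was not repeated without them. In no comparison was every same-number correlation over 0.1. With 2 to 7 pairs per comparison, this rule cannot exclude pairing by replicate number. The own number was the best match for 0 of 6 pairs in sorted fasting at ZT2 and 3 of 3 in knockout leptin at ZT14. The replicate block gave 1 for method by fasting at ZT2, with 409 of 16132 genes called. It gave 3 for refed minus ad libitum at ZT2 (2215 of 14931 genes) and 3 for ZT2 fasting in RiboTag (1139 of 15444 genes). With 1 library left out, the counts ranged from 11 to 16 (fasting, sorted, ZT2), 0 to 4 (ZT14), 0 to 18 (fasting, RiboTag, ZT2), 1 to 1 (ZT14), 3 to 3 and 1 to 1 (refed minus fasted, ZT2 and ZT14), 2 to 8 (refed minus ad libitum, ZT2), 8 to 34 and 4 to 15 (method, ZT2 and ZT14) and 0 to 25 (method by fasting, ZT2), and were 0 in the other 22 comparisons. No counts over all genes were taken with 1 library left out, so these ranges have no background beside them. Small groups, unknown animal origin and unknown strand limit these results.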
